A study of Caenorhabditis elegans with 2 samples.

Results

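The oocyte and eggshell genes described here are 10 genes of *C. elegans* whose RNA was measured in whole animals at Day 10 of adulthood, and they were picked by gene symbol from the 18510 genes of the deposited table. They code for RNA-binding proteins of the oocyte (*oma-1*, *oma-2*, *puf-5*) and for proteins that form the eggshell or sit on the oocyte surface (*cbd-1*, *egg-1*, *egg-2*, *chs-1*, *cpg-2*, *perm-2*, *perm-4*). All 10 were found, and all 10 had at least 20 reads over both libraries, as did 14119 genes in all.

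The series holds 1 library of nematodes given 2 mM AbaPep#07, a peptide derived from abalone hemocyanin, from the L4 larval stage, and 1 library of untreated nematodes (Control, 0 mM). Both came from wild-type N2, the standard laboratory strain, grown in S medium with *E. coli* NA22 at the same temperature, with no mutation or transgene in either. The comparison asks which genes respond to the peptide in aged animals. Neither the labels nor the methods for these libraries state whether FUDR, an inhibitor of progeny production, was added or how progeny were kept apart. The paper's paraquat, proteotoxicity and life span assays in such liquid cultures did add FUDR. Reads summed to 19241145 with AbaPep#07 and to 19409907 in Control, a ratio of 0.991. With 1 library per condition no difference has a replicate check, and the 95% intervals given below reflect the sampling of reads alone. They leave out differences between cultures and do not set PCR copies apart.

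Late oocytes of *C. elegans* are largely silent in transcription and carry a store of maternal mRNAs whose translation is held back until they are needed. OMA-1 and OMA-2 are CCCH zinc-finger proteins that repress such mRNAs and are together required for oocyte maturation, and PUF-5 is a Pumilio-family repressor of late oogenesis. Around the oocyte lies a vitelline layer, and after fertilization a chitin layer and a proteoglycan layer are laid down beneath it. CBD-1 is a chitin-binding protein of the vitelline layer that keeps EGG-1 and EGG-2 at the oocyte surface, which are LDL-receptor-repeat membrane proteins needed for fertilization. CHS-1 is the chitin synthase, CPG-2 a chitin-binding chondroitin proteoglycan of the shell, and loss of PERM-2 or PERM-4 leaves the shell permeable.

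With AbaPep#07, 8 of the 10 genes had lower RNA levels than in Control and 2 had higher levels, and none was past 2-fold. A lower FPKM was also measured for 54.8% of all genes with at least 20 reads. The 8 lower genes were the 3 RNA-binding protein genes and *cbd-1*, *egg-1*, *egg-2*, *chs-1* and *cpg-2*, by 9.73% (*egg-2*) to 23.4% (*cpg-2*) in FPKM, a level per transcript length and per sequenced library. The 2 higher genes were *perm-2*, by 0.203%, and *perm-4*, by 5.68%, which are neighbours in the genome. The FPKM of *perm-2* was thus all but equal in the 2 libraries. On the log2 scale the FPKM ratio of AbaPep#07 over Control had a median of -0.20 over the 10 genes, with a range from -0.38 to 0.08, and of -0.03 over the 14119 genes with at least 20 reads.

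The 2-fold threshold is that of the study. Among all genes with at least 20 reads, 3.27% had an FPKM ratio of at least 2 and 2.34% had a ratio of at most 0.5. Small differences were nonetheless larger than counting error, because these genes are abundant. The test used by the study, after Audic and Claverie, asks whether the reads of a gene split between the libraries as Poisson sampling from a shared level would give, so that it compares the 2 libraries and not the 2 conditions. At a false discovery rate (FDR) of 0.05 over all genes, 8 members were lower with AbaPep#07, where 12.4% of all genes were. The remaining 2 were higher, where 13.1% of all genes were. Abundant genes pass this test more readily. Among the 907 genes with as many reads as the members (6902 to 82957 over both libraries), 41.1% passed as lower and 32.1% as higher, and the median log2 ratio was -0.04. Of these 907 genes, 57.7% had a lower FPKM with AbaPep#07. A whole-animal library cannot tell fewer oocytes from less RNA in each oocyte.

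**Figure D1:**
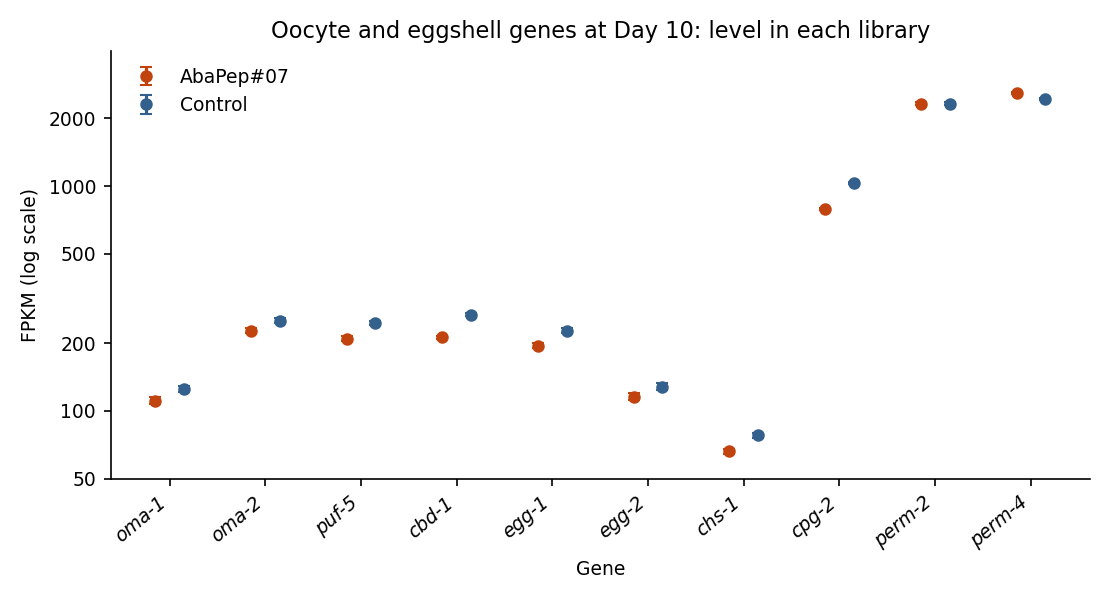
Level of each gene in FPKM (log scale) in the AbaPep#07 library (left point) and the Control library (right point), with 95% Poisson intervals of the reads carried to FPKM. The AbaPep#07 point lies below the Control point for the first 8 genes, such as *cpg-2* at 792 against 1034 FPKM, and not for *perm-2* and *perm-4*, which lie at 2326 FPKM or higher in both libraries.

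The RNA-binding protein genes were all lower with AbaPep#07. *oma-1* (gene 177703, chromosome IV, 8888976 to 8890999, plus strand, 6 exons; positions on WBcel235) had 3241 reads and 111 FPKM with AbaPep#07, against 3661 reads and 125 FPKM in Control. Its FPKM was 11.3% lower, and the ratio of reads scaled by library total was 0.893 (95% interval 0.852 to 0.937). *oma-2*, its close relative on another chromosome (gene 179183, chromosome V, 8029439 to 8031214, plus strand, 6 exons), had 5520 reads and 227 FPKM with AbaPep#07, against 6124 reads and 252 FPKM in Control. The level of *oma-2* was 9.81% lower by FPKM, with a scaled read ratio of 0.909 (0.877 to 0.943), an interval that overlaps that of *oma-1*.

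Both *oma* genes thus differed to a like extent. The FPKM of *oma-2* was 2.04 times that of *oma-1* with AbaPep#07 and 2.01 times in Control. The ratio of these ratios by reads was 1.02, with an exact interval of 0.959 to 1.08. This interval covers read sampling alone and includes no difference between the 2 genes. Their reads were whole numbers in both libraries, as they were for all 10 genes, whereas 2249 genes of the table had fractional reads in either library where the counting divided reads among similar genes. The Pumilio gene *puf-5* (gene 174373, chromosome II, 8575541 to 8577787, plus strand, 5 exons) had 7199 reads and 210 FPKM with AbaPep#07, against 8500 reads and 247 FPKM in Control. It was 15.1% lower by FPKM, with a scaled read ratio of 0.854 (0.828 to 0.882).

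Among the genes of the vitelline layer and oocyte surface, *cbd-1* was the most reduced. *cbd-1* (gene 178061, chromosome IV, 11372991 to 11377627, plus strand, 10 exons) had 16695 reads and 213 FPKM with AbaPep#07, against 21139 reads and 268 FPKM in Control. This is 20.5% lower by FPKM, and the scaled read ratio was 0.797 (0.781 to 0.813). Of the 907 genes with like read numbers, 4.85% had a lower log2 FPKM ratio than *cbd-1*.

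Smaller reductions were measured for the genes of the membrane proteins EGG-1 and EGG-2. *egg-1* (gene 175804, chromosome III, 5728180 to 5730159, plus strand, 5 exons) had 5693 reads and 195 FPKM with AbaPep#07, against 6640 reads and 227 FPKM in Control, and its scaled read ratio was 0.865 (0.835 to 0.896). *egg-2* (gene 187510, chromosome III, 7058527 to 7060583, minus strand, 5 exons) had 3324 reads and 116 FPKM with AbaPep#07, against 3689 reads and 128 FPKM in Control, with a scaled read ratio of 0.909 (0.867 to 0.953). The FPKM of *egg-1* was 14.1% lower and that of *egg-2* 9.73% lower. The FPKM of *egg-1* was 1.68 times that of *egg-2* with AbaPep#07 and 1.77 times in Control, and the ratio of these ratios by reads was 0.952 (exact interval 0.897 to 1.01), which includes no difference between the 2 genes. The intervals of both *egg* genes lay above that of *cbd-1* without overlap.

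The gene of the chitin-making enzyme, *chs-1* (gene 172508, chromosome I, 7554855 to 7559916, plus strand, 10 or 11 exons in 2 transcripts), had the lowest level of the 10. It had 5093 reads and 66.1 FPKM with AbaPep#07, against 6038 reads and 77.9 FPKM in Control. The FPKM was 15.1% lower, and the scaled read ratio was 0.851 (0.820 to 0.883). In the Ensembl annotation its last 78 bases overlap T25G3.3 on the same strand, a gene with 3509 reads with AbaPep#07 and 3703 in Control. The reads of both genes were whole numbers in both libraries, and the RefSeq model of *chs-1* ends before the overlap, at 7559629.

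The largest difference of the 10 was that of *cpg-2* (gene 175991, chromosome III, 7102092 to 7103990, minus strand, 5 exons), the gene of the chitin-binding proteoglycan. It had 22745 reads and 792 FPKM with AbaPep#07, against 29729 reads and 1034 FPKM in Control. This is 23.4% lower by FPKM and a log2 ratio of -0.38, with a scaled read ratio of 0.772 (0.759 to 0.785). Of the 907 genes with like read numbers, 3.42% had a lower log2 FPKM ratio. Apart from *cpg-2* and *cbd-1*, this share ran from 12.8% (*chs-1*) to 72.3% (*perm-4*) for the members. *cpg-2* and *cbd-1*, the 2 members annotated with chitin binding, were the 2 lowest by ratio. *cpg-2* was slightly the lower in these libraries, as its reads relative to those of *cbd-1* were 0.969 times those in Control (exact interval 0.943 to 0.995). This interval covers read sampling alone. *cpg-2* lies 41508 bases from *egg-2*.

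*perm-2* and *perm-4* stood apart from the other 8. They lie head to head on chromosome IV, 1682 bases apart, *perm-4* (gene 176932, 1121494 to 1125107, minus strand, 4 exons) to the left of *perm-2* (gene 176933, 1126790 to 1128865, plus strand, 5 exons). *perm-4* had 42692 reads and 2586 FPKM with AbaPep#07, against 40265 reads and 2447 FPKM in Control, 1.06 times by FPKM and 1.07 times by scaled reads (1.06 to 1.08). *perm-2* had 20217 reads and 2330 FPKM with AbaPep#07, against 19890 reads and 2326 FPKM in Control. Its FPKM was thus all but equal in the 2 libraries, with a log2 ratio of 0.0029, while its scaled read ratio was 1.03 (1.01 to 1.05). With DESeq2 size factors in place of library totals, *perm-2* no longer passed the FDR threshold.

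The 2 neighbours also differed a little from each other, as the reads of *perm-4* relative to *perm-2* were 1.04 times those in Control (exact interval 1.02 to 1.07). The intervals of both genes lay wholly above 1, and those of the other 8 wholly below it. Genes that overlap *perm-2* and *egg-1* on the opposite strand, C44B12.6 and B0244.9, share 25 and 42 bases with them. They had 14 and 3 reads with AbaPep#07, against 16 and 2 in Control, far fewer than the reads of either member.

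**Figure D2:**
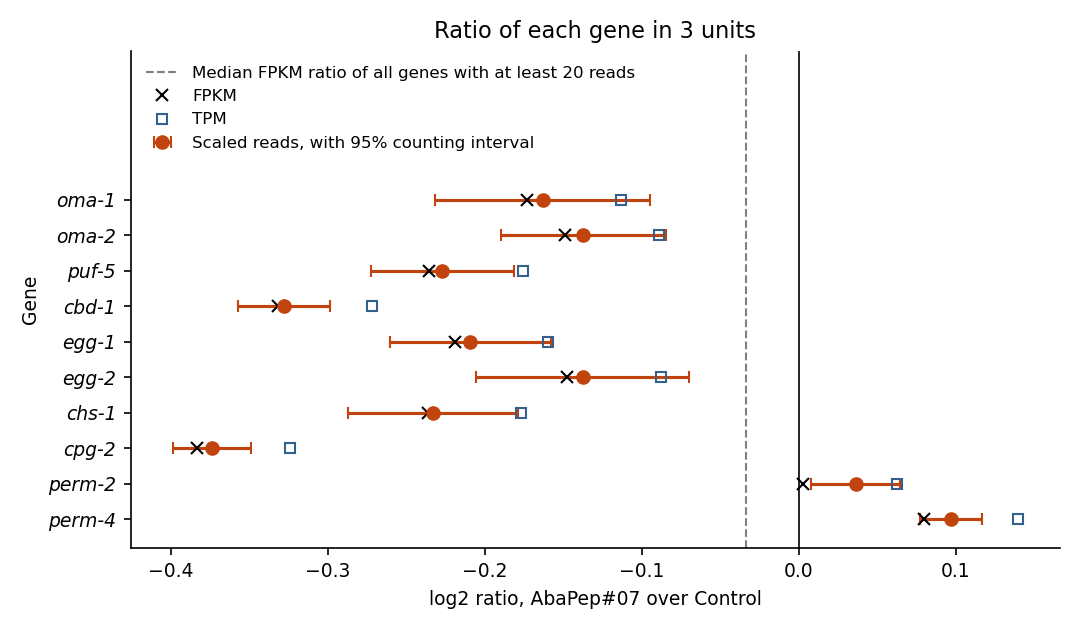
log2 ratio of AbaPep#07 over Control for each gene by scaled reads (circles, with exact 95% counting intervals), FPKM (crosses) and TPM (squares). The dashed line is the median log2 FPKM ratio of all genes with at least 20 reads, -0.03. The first 8 genes lie below 0 in all 3 units and *perm-2* and *perm-4* above it, and TPM places every gene to the right of FPKM.

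The levels of the 10 genes spanned a wide range, with almost the same order in both libraries. By FPKM the order with AbaPep#07 was *perm-4*, *perm-2*, *cpg-2*, *oma-2*, *cbd-1*, *puf-5*, *egg-1*, *egg-2*, *oma-1* and *chs-1*. In Control *cbd-1* stood before *oma-2*, and the order was otherwise the same. Neighbours in the order that did not differ beyond counting error were *cbd-1* and *puf-5* with AbaPep#07, *oma-2* and *puf-5* in Control, and *egg-2* and *oma-1* in both. All 10 ranked among the more abundant transcripts. *chs-1* exceeded 86.6% of genes by FPKM with AbaPep#07 and 88.7% in Control, and *perm-4* exceeded 99.6% and 99.5%.

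*perm-2* and *perm-4* took the larger part of the summed level of the 10 genes, and whether the sum was lower depended on the unit. In TPM, a level per transcript length that sums to the same total in every library, the 10 genes together had 5903 with AbaPep#07 and 5900 in Control. In reads they had 132419 with AbaPep#07 and 145675 in Control, a scaled ratio of 0.917 (0.910 to 0.924). *perm-2* and *perm-4* made up 71.8% of the TPM sum with AbaPep#07 and 66.9% in Control. The other 8 genes summed to 1665 TPM with AbaPep#07, against 1952 TPM in Control. In reads these 8 had 69510 with AbaPep#07 and 85520 in Control, a scaled ratio of 0.820 (0.812 to 0.828). For *perm-2* and *perm-4* the reads were 62909 with AbaPep#07 and 60155 in Control, a scaled ratio of 1.05 (1.04 to 1.07).

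**Figure D3:**
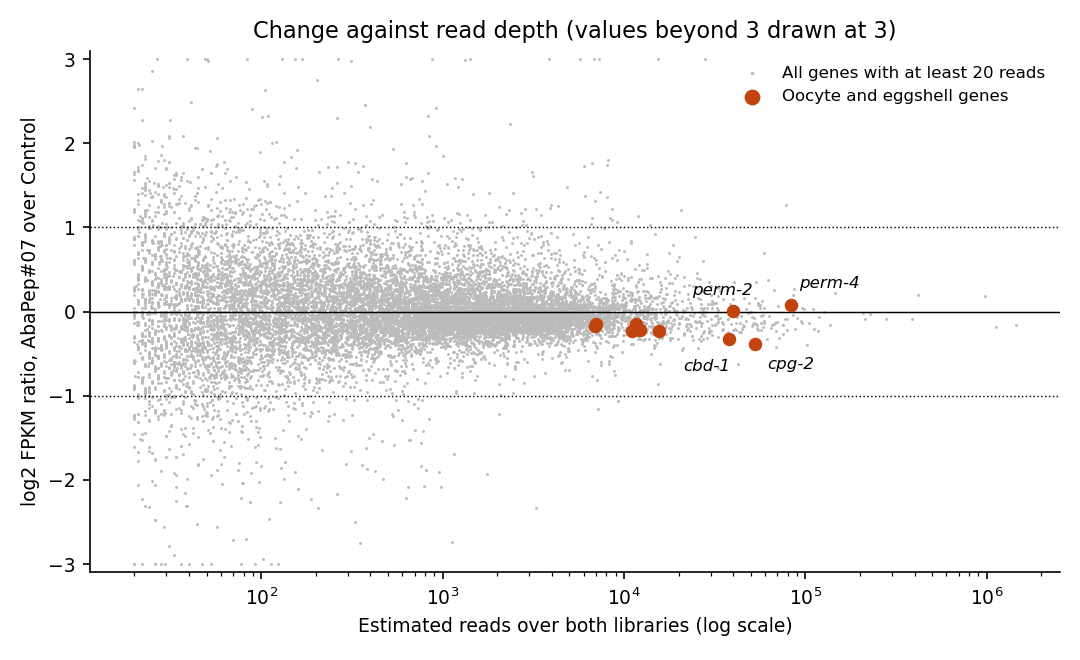
log2 FPKM ratio of AbaPep#07 over Control against the reads of each gene over both libraries (log scale), for the 14119 genes with at least 20 reads (grey) and the 10 oocyte and eggshell genes (orange). Dotted lines mark 2-fold, and values beyond 3 are drawn at 3. All 10 genes lie inside these lines, at 6902 reads or more, and *cbd-1* and *cpg-2* are at the lower side of the genes of like depth.

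The members share little by position, with 4 on chromosome IV, 3 on III and 1 each on I, II and V. By the annotation in the deposited table, 5 of them carry the term eggshell formation (*cbd-1*, *egg-1*, *egg-2*, *chs-1* and *cpg-2*), 3 the term P granule, the germline RNA granule (*oma-1*, *oma-2* and *puf-5*), and 2 carry no term (*perm-2* and *perm-4*). The 8 genes with either term are the 8 that were lower. This split was seen after the values and rests on the lack of any term for *perm-2* and *perm-4*, which also act in the eggshell. Over all 17 genes annotated with eggshell formation, 15 were lower at the FDR threshold and 0 higher, with a median log2 ratio of -0.23. Leaving out the members, 10 of 12 were lower. The other 2, *rab-11.1* and *emb-27*, had log2 ratios of 0.0037 and 0.03. Over the 74 genes annotated with P granule, 38 were lower and 4 higher at the threshold, and the median was -0.14. Over all genes 12.4% were lower and 13.1% higher at this threshold. Among the 907 genes in the members' range of reads the shares were 41.1% and 32.1%. These annotated sets were added after the values of the members had been seen.

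Other genes of the same processes were read from lists by role, which share genes with the annotated sets. Their counts stand beside the same shares at the FDR threshold, 12.4% lower and 13.1% higher over all genes, and abundant genes pass more readily. The term eggshell formation is carried by 6 of 13 further eggshell genes, and the term P granule by 13 of 22 other oocyte RNA regulators and by 10 of 14 germ granule and germline genes, so their counts are not independent of the annotated sets. Of the 13 further genes of the eggshell, egg activation and oocyte surface, 11 were lower at the FDR threshold and 1 was higher, with a median log2 ratio of -0.27. The most abundant, *cpg-1*, which codes for another chondroitin proteoglycan of the shell, had 480 FPKM with AbaPep#07 and 603 FPKM in Control, a log2 ratio of -0.33 close to that of *cbd-1*. *perm-1* was the lowest by ratio, with 17.7 FPKM with AbaPep#07 and 25.8 FPKM in Control. *perm-3*, with 1191 reads with AbaPep#07 and 1323 in Control, was not past the threshold. The gene that was higher was *cav-1*, a caveolin gene, with 3808 reads and 419 FPKM with AbaPep#07, against 2175 reads and 257 FPKM in Control, a log2 ratio of 0.71.

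The other oocyte RNA regulators were lower almost as a whole. All 22 had a lower FPKM with AbaPep#07, where 54.8% of all genes with at least 20 reads did. Of the 22, 21 were past the FDR threshold as lower, and the median log2 ratio was -0.26. They ran from *fbf-2*, a Pumilio-family regulator of germline stem cells, at -0.58 (6.33 FPKM with AbaPep#07, 9.47 FPKM in Control) to *puf-7* at -0.11. The reads of both were fractional, so part of them was divided among similar genes. The most abundant was *cey-2*, a cold-shock-domain RNA-binding protein gene, with 757 FPKM with AbaPep#07 and 926 FPKM in Control.

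A list of 14 germ granule and germline genes was lower too. All 14 had a lower FPKM, where 54.8% of all genes with at least 20 reads did. Of the 14, 11 were past the FDR threshold as lower and 0 as higher, and the median log2 ratio was -0.18. *glh-2*, a germline helicase gene, was the lowest at -0.56, *nos-2* the highest at -0.04, and *wago-1*, an Argonaute gene, the most abundant at 117 FPKM with AbaPep#07 and 135 FPKM in Control. The medians of these 3 lists and of the 10 members stayed below 0 in FPKM, TPM and scaled reads and with TMM or DESeq2 scaling. The same held for the lists of oocyte maturation signalling, sperm and somatic tissue genes described below, but not for those of gonadal sheath and early embryo genes. A median below 0 in every unit is thus not particular to the germline lists.

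Of 12 genes of oocyte maturation signalling, 9 had a lower FPKM and 3 a higher FPKM with AbaPep#07, with a median log2 ratio of -0.07. Of these, 1 gene, *wee-1.3*, a kinase gene that holds oocytes before maturation, was past the FDR threshold as lower, with 2998 reads with AbaPep#07 and 3412 reads in Control. *goa-1*, a G-protein gene, was the most abundant at 96.1 FPKM with AbaPep#07 and 103 FPKM in Control, and *ceh-18*, a homeobox gene of the gonadal sheath that both lists hold, the highest by ratio at 0.25. Of 6 gonadal sheath genes 2 were lower at the threshold and 0 higher, with a median of 0.05. The shares over all genes were 12.4% lower and 13.1% higher. The most abundant of them, the gap-junction gene *inx-8*, had 126 FPKM with AbaPep#07 and 141 FPKM in Control.

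**Figure D4:**
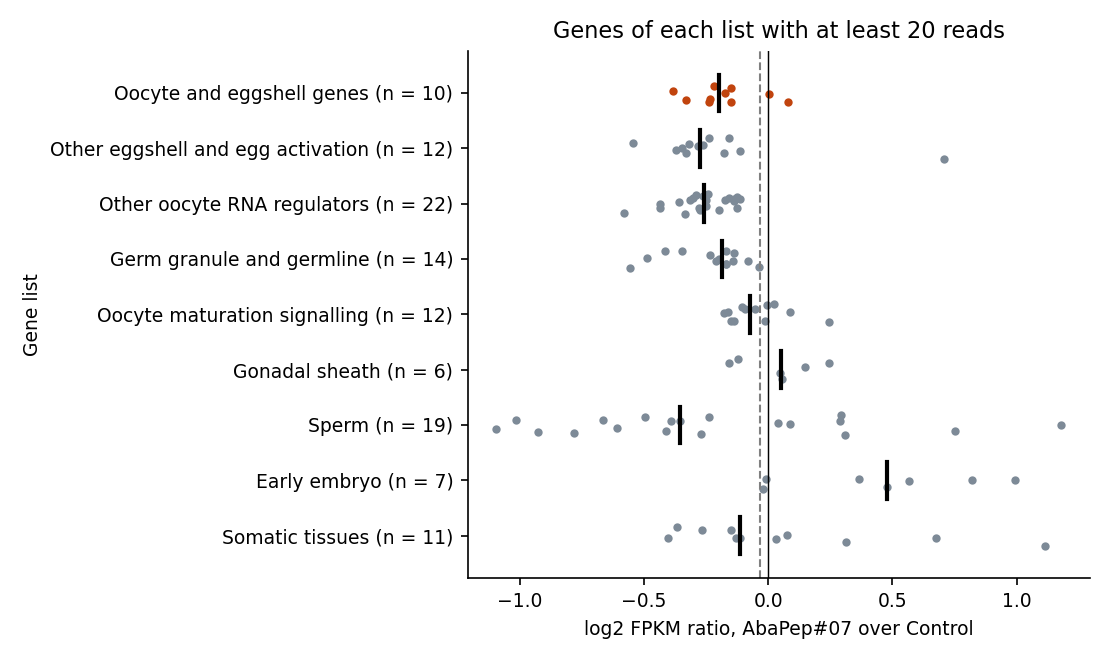
log2 FPKM ratio of AbaPep#07 over Control for genes with at least 20 reads in the 10 oocyte and eggshell genes (orange) and in 8 lists of related or marker genes (grey), with list medians as bars. The solid line is at 0 and the dashed line at the median of all genes, -0.03. The top 4 lists have medians between -0.18 and -0.27, with *cav-1* at 0.71 as the single gene of the second list above 0, and the early embryo list has a median of 0.48 over 7 genes.

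Markers of embryos, sperm and somatic tissues, which a whole adult also holds, were read in the same way. Of 14 early embryo genes in the table, 7 had at least 20 reads. Of the 14, 3 were higher at the FDR threshold and 0 lower, where 13.1% and 12.4% of all genes were. Their median log2 ratio was 0.48 over the 7, and 0.32 with 1 FPKM added to both values. Of the 7, 5 had a higher FPKM and 2 a lower FPKM. The 3 past the threshold were *die-1* (1050 reads with AbaPep#07, 757 in Control), *elt-1* (290 and 166) and *sdz-28*. Whether the reads of these genes came from embryos or from tissues of the adult was not tested. The summed level of the list was 90.8 TPM with AbaPep#07 and 76.7 TPM in Control. *sdz-28* was the highest, with 50 reads with AbaPep#07 and 25 in Control, while *pal-1*, which is also a maternal mRNA and the most abundant of the list, had 57.7 FPKM with AbaPep#07 and 58.4 FPKM in Control.

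Sperm markers were low in both libraries. Of 32 such genes 19 had at least 20 reads, and the list summed to 138 TPM with AbaPep#07 and 140 TPM in Control. Among the 19, 12 were lower and 7 higher, with a median log2 ratio of -0.36, and over the 32 genes 2 were higher at the FDR threshold and 0 lower. Of the major sperm protein genes, *msp-31* had 48.6 reads with AbaPep#07 and 20.1 in Control, *msp-33* had 8 reads with AbaPep#07 and 16 in Control, and *msp-79* had 8.65 with AbaPep#07 and 16.4 in Control. *msp-59*, the most abundant of the list in Control, had 20.3 reads with AbaPep#07 and 25.2 in Control. Reads of these near-identical genes were divided among them, so the value of a single copy is uncertain.

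Among 12 markers of muscle, intestine, neurons and hypodermis, 6 were lower and 4 higher at the FDR threshold, with a median log2 ratio of -0.12. Of all genes, 12.4% were lower and 13.1% higher at it. The intestinal actin gene *act-5* was past 2-fold, with 5757 reads and 283 FPKM with AbaPep#07, against 2653 reads and 130 FPKM in Control. The intestinal genes *elt-2* and *ges-1* were also higher at the threshold, with log2 ratios of 0.67 and 0.31. The muscle genes *myo-2*, *myo-3*, *unc-15* and *unc-54* were lower at it, with -0.37, -0.27, -0.15 and -0.12. Reductions of the size measured for the members were thus not limited to germline genes. The neuronal gene *rab-3* was the lowest at -0.40, and *snb-1* the most abundant at 349 FPKM with AbaPep#07 and 342 FPKM in Control. Summed over the 12 genes the level was 1165 TPM with AbaPep#07 and 1040 TPM in Control. Whether the makeup of the animals, as read by these markers, has a part in the lower levels of the 8 oocyte and eggshell genes was not tested.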

How the data were processed

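RNA of whole N2 nematodes was measured in 1 library with AbaPep#07 and 1 Control library, grouped by the treatment label. Per the methods of the study, SOAPnuke was used for read cleaning, Bowtie2 (2.2.5) for alignment to the reference coding genes and RSEM (1.2.12) for quantification, with WBcel235 as the genome. The deposited estimated counts are the authors' RSEM output per gene, unscaled, in which reads shared by similar genes are split between them. The deposited FPKM and TPM values were computed by the authors from these and rounded to 2 decimals. The table also holds the authors' log2 ratios, p-values and FDR, which were not used.

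Ratios were taken from FPKM, with 0.01 in place of 0. Exact 95% intervals came from the binomial split of reads scaled by library totals (Poisson for levels, conditional odds ratio for pairs of genes). The Audic and Claverie test was computed on reads rounded down, with Benjamini-Hochberg adjustment over 18510 genes and a threshold of 0.05. Its code was tried on simulated Poisson reads with changes larger than those of the members. The simulated reads held no variation between cultures, so the trial does not check the test for differences such as those measured here. edgeR's quasi-likelihood test and DESeq2 could not be fitted without replicates. Only the scaling factors of edgeR 4.0.16 and DESeq2 1.42.0 (R 4.3.3) were used, on reads rounded to whole numbers. All other steps used scipy 1.17.1, numpy 2.4.6, pandas 2.3.3 and matplotlib 3.10.9 under Python 3.11.15. Positions, strands and exons came from the Ensembl annotation of WBcel235.

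The members and lists were chosen with earlier results of these data known. Named are all members and, from each list written by role, the highest and lowest ratio and the highest Control FPKM among genes with at least 20 reads, and any gene past 2-fold. *perm-3*, *rab-11.1*, *emb-27*, *die-1*, *elt-1*, *elt-2*, *ges-1*, *myo-2*, *myo-3*, *unc-15* and *unc-54* were named after their values were seen. *med-2* was not analysed here. Alternatives covered the unit, the scaling, 1 FPKM added, read minimums, a fold of 1.5, an exact binomial test and summed paralogs. No column of values per sample was left unused.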

Additional observations from a re-analysis of the deposited data

How the results depend on the processing

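The median log2 ratio of the 10 genes was -0.14 by TPM, against -0.20 by FPKM. TPM moved all genes in the same way, as their median was 0.03 by TPM and -0.03 by FPKM. The number of members past the FDR threshold as higher was 1 with DESeq2 size factors, since *perm-2* did not pass, and 2 otherwise, with TMM scaling, read minimums of 20 or 100 and the exact binomial test. The count of lower members was 8 in each of these. No member was past 1.5-fold. Over 50 ratios of single members under 5 alternatives, 0 changed direction, 12 moved by more than their counting error, and the largest move was 0.06 on the log2 scale. Summing *oma-1* with *oma-2* and *egg-1* with *egg-2* gave a median of -0.21 and 2 higher entries. The FDR test was not run on FPKM or TPM, which are not counts, nor on the summed pairs. The genes of like read numbers and the annotated sets were chosen after seeing the data. Each member had at least 3241 reads in each library. Within the *oma* and the *egg* pair the interval of the ratio of ratios included no difference, but it covers read sampling alone and cannot address a difference in response. The same limit holds for *cpg-2* over *cbd-1* and for *perm-4* over *perm-2*, whose intervals did not include equality. A single library per condition gives no measure of how much cultures vary. No paired analysis was possible because each condition has 1 library.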
